A study of Mus musculus with 8 samples.

Results

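The 10 genes described here encode the receptors and ligands through which T cells receive costimulatory and checkpoint signals. They are Cd28, Icos, Ctla4, Pdcd1, Tnfrsf4 and Tnfrsf9 on the receptor side and Cd80, Cd86, Cd274 and Pdcd1lg2 on the ligand side. They were chosen by name, and all 10 were found among the 21755 genes of the 8 count tables. The libraries hold CD45+ cells sorted from back skin wounds of male C57BL/6 mice (C57BL/6J in the study's methods), with 5 mice pooled in each library. Wounds of mice made diabetic with streptozotocin, a toxin of insulin-producing beta cells (120 mg/kg at 4 weeks of age after 12 h without food, glucose of at least 16.5 mmol/L), were set against wounds of control mice on days 1, 3, 5 and 7. Each group had 1 library on each day. Differences between the groups on one day therefore have no replicate check, and the tests below use the 4 days as blocks or as a time course.

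A T cell is activated when its antigen receptor and CD28 are engaged together, CD28 by CD80 or CD86 on the antigen-presenting cell. CTLA-4 binds the same ligands and restrains the response, and it is carried at high level by regulatory T cells. ICOS belongs to the CD28 family and binds ICOS ligand. PD-1, the product of Pdcd1, restrains activated T cells when it meets PD-L1 (Cd274) or PD-L2 (Pdcd1lg2). OX40 (Tnfrsf4) and 4-1BB (Tnfrsf9) are receptors of the TNF receptor family that sustain activated T cells. In skin, many of the T cells carry a gamma-delta antigen receptor, and those of the dermis commonly make interleukin 17.

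Several of these genes lie side by side in the genome (GRCm38, GENCODE annotation). Cd274 (chr19:29367455-29388095, plus strand) ends 22.8 kb before Pdcd1lg2 begins (chr19:29410919-29471161, plus strand). Cd28 (chr1:60716800-60773359), Ctla4 (chr1:60887000-60915832) and Icos (chr1:60977927-61000320) follow one another on the plus strand, with gaps of 113.6 kb and 62.1 kb. Genes on the same strand overlap Ctla4 (Rpl18-ps1) and Icos (Gm37039), and genes on the opposite strand overlap Cd274, Pdcd1lg2 (A930007I19Rik) and Tnfrsf9 (Camta1). Reads of such pairs may be split between them, and whether the authors counted by strand is not given in the sources used here. RefSeq promoter windows (GRCm38.p6, 250 bases before to 50 after the start) matched 7 of the 10 genes. The windows of both PD-1 ligand genes, whose levels by library are described most fully below, and of Tnfrsf9 are shown 5′ to 3′, with matches to 2 motifs in capitals:

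Cd274, chr19:29367188-29367487, plus strand: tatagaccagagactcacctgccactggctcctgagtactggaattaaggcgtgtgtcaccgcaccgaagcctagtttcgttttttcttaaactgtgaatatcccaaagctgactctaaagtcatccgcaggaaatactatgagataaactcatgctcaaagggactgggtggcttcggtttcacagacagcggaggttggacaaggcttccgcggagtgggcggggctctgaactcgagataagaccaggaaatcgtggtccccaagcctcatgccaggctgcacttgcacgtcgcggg

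Pdcd1lg2, chr19:29410669-29410968, plus strand: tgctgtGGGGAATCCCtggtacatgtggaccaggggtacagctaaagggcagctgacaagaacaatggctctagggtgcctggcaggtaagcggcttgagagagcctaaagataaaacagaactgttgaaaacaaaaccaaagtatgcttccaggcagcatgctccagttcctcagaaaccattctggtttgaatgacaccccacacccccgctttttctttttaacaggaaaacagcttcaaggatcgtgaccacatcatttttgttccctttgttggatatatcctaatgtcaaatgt

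Tnfrsf9, chr4:150927749-150928048, plus strand, the second of 2 starts: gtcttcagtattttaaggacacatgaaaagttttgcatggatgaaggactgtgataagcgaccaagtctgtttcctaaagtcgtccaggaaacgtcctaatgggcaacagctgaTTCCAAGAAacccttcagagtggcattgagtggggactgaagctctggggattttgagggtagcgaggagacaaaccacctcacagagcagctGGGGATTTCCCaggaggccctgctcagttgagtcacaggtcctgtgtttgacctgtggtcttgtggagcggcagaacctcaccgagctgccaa

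The motifs searched on both strands were the NF-kB consensus, the STAT motif TTCNNNGAA and an interferon response motif, 2 copies of TTTC with any 2 bases between. Pdcd1lg2 held 1 NF-kB match. Tnfrsf9 held 2 overlapping NF-kB matches, printed as 1 run, and 1 STAT match, while the Cd274 window held none of the 3 motifs. Of the 8 windows of the 7 genes, only those of Pdcd1lg2 and of the second start of Tnfrsf9 held a match, and those of Ctla4, Pdcd1, Cd80, Tnfrsf4 and the first start of Tnfrsf9 held none. Among 32851 promoter windows of this length, 4.51% held the NF-kB consensus, 8.3% the STAT motif and 3.44% the interferon response motif. A match is a description of the letters only.

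Of 38959 cell barcodes, 35215 passed the filters, 3273 to 5440 in each library. Library totals ran from 19236522 to 33842509 UMIs. The control library of day 5 stood apart: it lost 28.5% of its barcodes, against 1.0% to 10.6% elsewhere, and its remaining cells were the deepest, with a median of 8219 UMIs against 2573 to 5219. Cells were clustered without the 10 genes, and clusters were named from marker genes. They comprised 2081 T cell-like, 534 NK cell-like, 2651 dendritic cell-like, 6036 monocyte-like, 5370 macrophage-like and 13883 neutrophil-like cells, and 4070 cells stayed unnamed, most of them shallow. Ptprc, the CD45 gene of the sort, was at 532 to 922 UMIs per 1000000 (CPM) over all cells of a library. The 9 T cell markers were each detected in the T cell-like cells of every library. No cell had a column of counts identical to that of a cell in another library.

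With all libraries summed, the receptor genes other than Tnfrsf9 were read mainly in T cell-like cells. These cells held 78.3% of all Icos UMIs (65.3% to 87.1% over the 8 libraries), 78.0% of Ctla4 (61.0% to 89.7%), 74.5% of Pdcd1 (39.7% to 80.5%), 62.3% of Cd28 (41.8% to 73.0%) and 59.8% of Tnfrsf4 (28.2% to 68.1%). Of Tnfrsf9 they held 46.0% (18.6% to 55.2%), beside 16.3% in dendritic cell-like, 9.47% in macrophage-like, 8.38% in monocyte-like and 7.14% in NK cell-like cells. On day 1 monocyte-like cells held more Tnfrsf9 UMIs than T cell-like cells (diabetic 206 against 146, control 178 against 148). On day 3 dendritic cell-like cells did (diabetic 566 against 242, control 405 against 383). These also held more Tnfrsf4 in the diabetic library of day 3 (56 against 40). On days 5 and 7 T cell-like cells held the most Tnfrsf9 in both groups. The ligand genes had other sources, which changed with the cells present in each library. Of Cd274 UMIs, neutrophil-like cells held 47.9%, monocyte-like cells 22.5%, dendritic cell-like cells 12.1% and macrophage-like cells 10.4%. The neutrophil-like share was 67.3% in the control library of day 1 and 7.13% in that of day 5, where macrophage-like cells held 48.0%, and macrophage-like cells also held more than neutrophil-like cells on day 7 in both groups. Over all libraries Cd80 was shared between dendritic cell-like (35.7%) and neutrophil-like cells (34.6%), as was Pdcd1lg2 (28.1% and 34.4%). Cd86 was divided among dendritic cell-like (31.7%), monocyte-like (27.0%) and macrophage-like cells (25.6%), with 7.31% in neutrophil-like cells. Levels below are the CPM of a gene within a class of a library. Their intervals are exact 95% Poisson intervals that cover counting error only, and each gene is compared across cells and not with other genes.

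**Figure D1:**
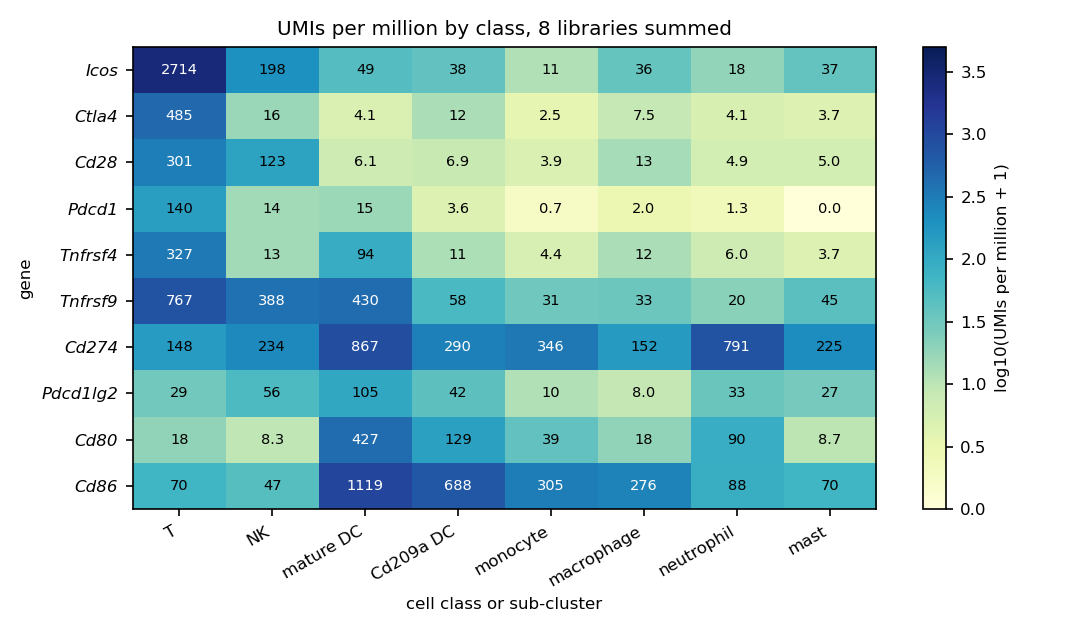
CPM of each gene (rows) in 8 cell classes (columns), with all libraries summed, colour on a log10 scale. Icos reached 2714 in T cell-like cells against 10.5 to 198 in the other classes drawn. Of the 8 classes, Cd274 was highest in mature dendritic cell-like cells (867) and neutrophil-like cells (791).

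Within the T cell-like cells the receptors were divided among the sub-clusters, which are called here by their leading genes and described with all libraries summed. The cluster led by Foxp3, the transcription factor of regulatory T cells, held 282 cells. Its Ctla4 level was 1649.5 CPM, against 899 in the cycling cells led by Mki67, 231 in the cluster led by Cd4 and Cd40lg, 181 in the cluster led by Cd8b1 and 27.5 in the cells led by Il17a and Trdc. Tnfrsf4 had the same order, at 1024, 552, 304, 126 and 17.9 CPM. The clusters led by Cd4 and by Cd8b1 came largely from different libraries. Cd4 and Cd40lg-led cells numbered 0 on day 1, and Cd8b1-led cells 9 and 2 on day 7 (diabetic and control). Ctla4 in Cd8b1-led cells was 124 and 355 CPM on day 1 and 233 and 23.6 on day 5, the last from 2 UMIs in 23 cells. In Cd4 and Cd40lg-led cells it was 270 and 197 on day 7. The order of these clusters is therefore one over summed libraries only. Tnfrsf9 was also highest in the Foxp3-led cells (2105), but the Il17a and Trdc-led cells stood at 572 and the Fermt2 and Cd7-led cells at 628, above the Cd8b1-led cells (169.8). The last order is one over summed libraries. In the diabetic library of day 1, Tnfrsf9 was 255 in 31 Cd8b1-led and 238 in 33 Il17a and Trdc-led cells, too few cells to set an order. The clusters come from the same cells, so these orders are descriptions with no test.

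Icos and Pdcd1 were divided differently. Icos was high in the Foxp3-led cells (4139 CPM) and also in the Il17a and Trdc-led cells (3212), and it was low only in the Fermt2 and Cd7-led cells (98.4) among the sub-clusters. Pdcd1 was highest in the Il17a and Trdc-led cells (207), ahead of the Foxp3-led (155) and Cd4 and Cd40lg-led cells (133), although the order of the first and second was the reverse in the diabetic library of day 7 (169 in Il17a and Trdc-led and 199 in Foxp3-led cells, against 234 and 153 in the control library). No Pdcd1 UMI was read in the 107 Fermt2 and Cd7-led cells. Cd28 was highest in the Cd8b1-led (555) and Cd4 and Cd40lg-led cells (519) and stood at 54.6 in the Il17a and Trdc-led cells.

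**Figure D2:**
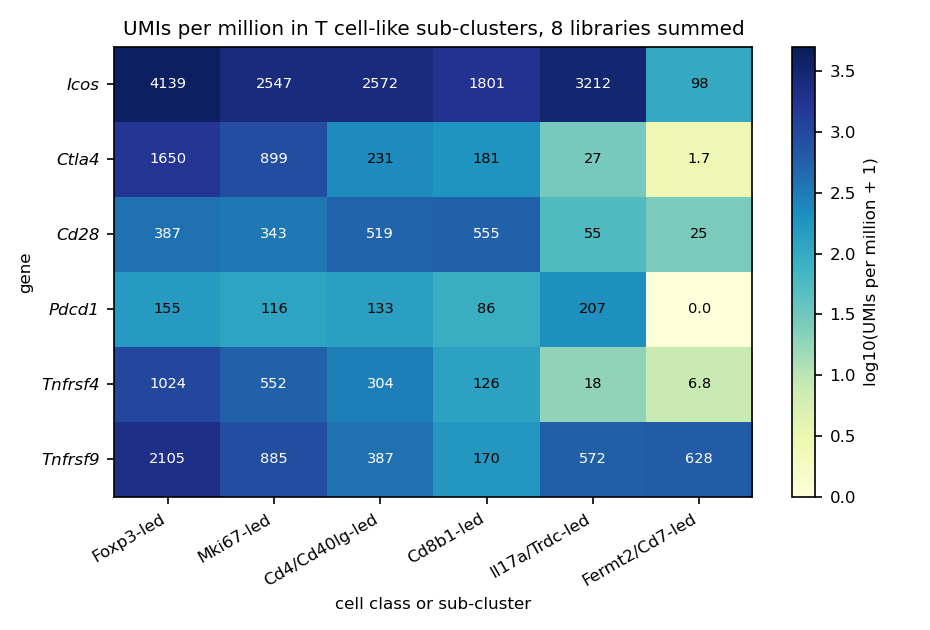
CPM of the 6 receptor genes (rows) in 6 T cell-like sub-clusters named by their leading genes (columns), with all libraries summed, colour on a log10 scale. Ctla4 and Tnfrsf4 went down through the first 5 columns, from 1649.5 and 1024 in Foxp3-led cells to 27.5 and 17.9 in Il17a and Trdc-led cells, while Icos stayed at 3212 in the latter.

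The sub-clusters did not make up the same share of T cell-like cells in every library. Foxp3-led cells were 25.6% of them in the diabetic library of day 7 (exact 95% binomial interval 22.1% to 29.4%) and 13.8% (10.8% to 17.4%) in the control library of that day, against 3.73% to 10.9% in the other 6 libraries. The Cd8b1-led cells were 35.2% and 44.6% of T cell-like cells on day 1 in the diabetic and control libraries, and 1.59% and 0.446% on day 7. T cell-like cells themselves were 1.84% and 2.09% of all cells on day 1 and 15.5% and 9.63% on day 7. Cd4 and Cd40lg-led cells were 0.0% on day 1 in both groups and 36.6% and 26.6% on day 7. Levels over the whole T cell class below therefore mix different sub-clusters early and late. The class held 332902 to 2732883 UMIs in a library. With cells gated singly by marker UMIs in place of clusters, the level over all libraries was 1389 in place of 2714 CPM for Icos and 248 in place of 485 CPM for Ctla4.

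Ctla4 in T cell-like cells stood at 186, 86.8, 302 and 866 CPM on days 1, 3, 5 and 7 in the diabetic libraries. In the control libraries it stood at 252, 465, 359 and 419. The groups overlapped over the days: the lowest and the highest level both came from diabetic libraries. On day 3 the diabetic level was 0.187 times the control level (exact interval 0.139 to 0.247), and on day 7 it was 2.06 times (1.91 to 2.24). Markers of other cells in this class also differed between the libraries. The 7 NK cell markers summed to 502, 272, 227 and 185 CPM in the diabetic libraries. In the control libraries they summed to 222, 1806, 207 and 116. The 8 macrophage markers are given below, and the part of these markers in the levels was not tested.

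Without the Foxp3-led and the cycling cells, Ctla4 levels were 67.0, 13.1, 99.2 and 181 CPM in the diabetic and 172, 93.2, 64.4 and 83.0 in the control libraries, with 53 of 84 Ctla4 UMIs of the class left in the control library of day 1 and 242 of 2366 in the diabetic library of day 7. Within the Foxp3-led cells, Ctla4 was 1831 CPM in the diabetic and 1502 in the control library of day 7, and 1545 in the diabetic library of day 5. The other libraries had 4 to 14 such cells each.

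Tnfrsf4 in T cell-like cells stood at 125, 63.2, 217 and 566 CPM over the 4 days in the diabetic libraries and at 69.1, 249.9, 314 and 320.2 in the control libraries. Its diabetic level was below that of the control on days 3 and 5 and above it on days 1 and 7. Tnfrsf9 levels were 382, 382, 715 and 1139 in the diabetic and 445, 348, 859 and 761 in the control libraries. Both groups had more Tnfrsf9 on days 5 and 7 than on days 1 and 3. Without the Foxp3-led and the cycling cells its levels were 323, 366, 561 and 539 in the diabetic libraries. The control levels were then 448, 157, 353 and 453, with day 5 below day 1.

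Icos in T cell-like cells stood at 1950.1, 1614, 2797 and 3217 CPM in the diabetic and at 1457, 1696, 2137 and 3405 in the control libraries. The levels of days 5 and 7 lay above those of days 1 and 3 in both groups. Without the Foxp3-led and the cycling cells Icos stood at 1790, 1338, 2764 and 2855 in the diabetic libraries. The control libraries then stood at 1447, 1445, 1258 and 3393, with day 5 below days 1 and 3. Shares of cells were taken after each cell was thinned to 1000 UMIs, and cells with fewer UMIs were left out. Of the T cell-like cells kept, 82.0% had an Icos UMI in the diabetic and 80.3% in the control library of day 7, against 55.2% and 56.0% on day 1. Neutrophil-like cells, which should lack Icos, had one in 0.08% to 8.25% of cells after the same thinning.

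Pdcd1 in T cell-like cells was 81.0, 39.5, 176 and 148 CPM in the diabetic and 42.1, 90.0, 86.2 and 197 in the control libraries. Cd28 was 259, 104, 268 and 404 in the diabetic and 433, 283, 241 and 269 in the control libraries. Neither gene kept one order between the groups over the days: Pdcd1 was higher in the diabetic library on days 1 and 5, Cd28 on days 5 and 7.

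**Figure D3:**
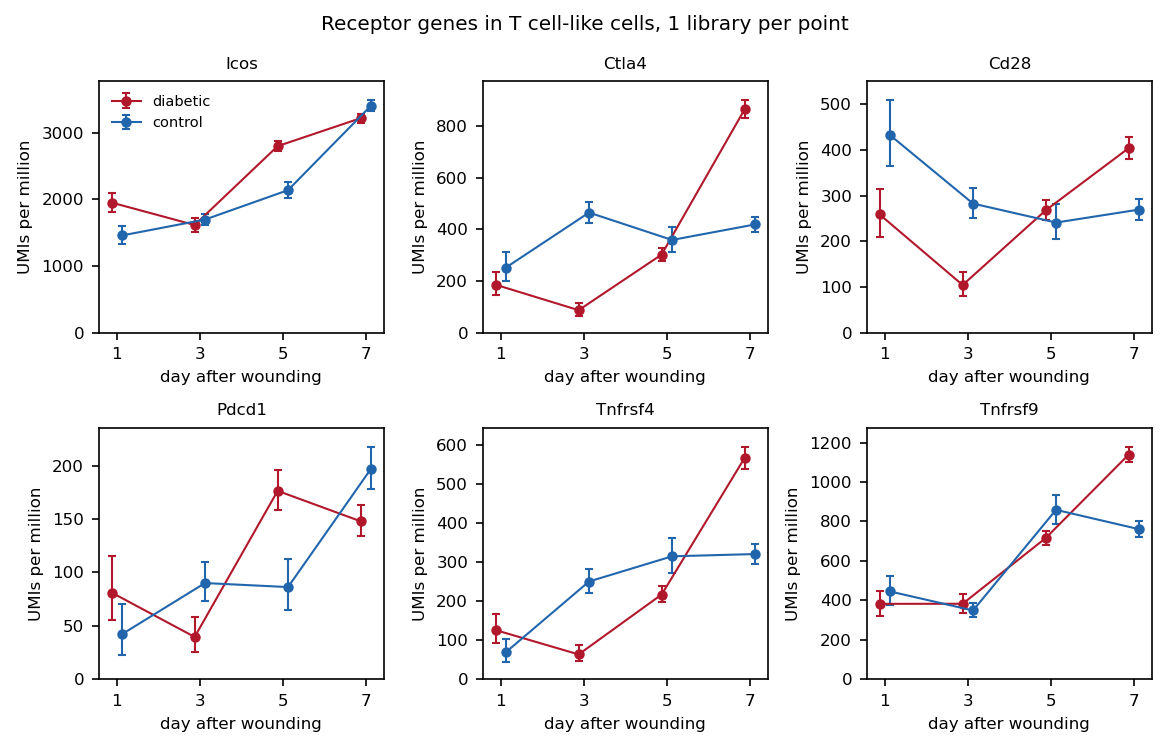
CPM of the 6 receptor genes in T cell-like cells against the day after wounding, 1 point per library (diabetic red, control blue) with exact 95% Poisson intervals. Ctla4 separated in opposite directions on day 3 (86.8 diabetic, 465 control) and day 7 (866 and 419), while Icos was close on day 7 (3217 and 3405).

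The question of whether diabetes went with a different level over the time course was addressed with edgeR's quasi-likelihood test, with day as a block and 8 libraries. In T cell-like cells no gene of 8368 tested was called at an adjusted p under 0.05 (0.0%), and none of the 10 genes was called, nor by DESeq2. One of the 10, Cd274, had an unadjusted p under 0.05, as had 228 of all genes tested. The log2 fold change, diabetic over control, was -0.47 for Ctla4 (SE 0.45), -0.23 for Tnfrsf4 (SE 0.42), 0.13 for Icos (SE 0.16), 0.02 for Pdcd1 (SE 0.36), -0.35 for Cd28 (SE 0.31) and 0.04 for Tnfrsf9 (SE 0.18). Each of these 6 adjusted p-values was 0.9997. Their median over all 10 genes was 0.03, beside -0.01 over all genes tested.

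Over days, none of the 10 genes was called in T cell-like cells by edgeR, in a fit where 0.114% of 7908 genes were called, 0.0759% as higher, but 7 had an unadjusted p under 0.05, as had 599 of all genes tested. The log2 change per day was 0.36 for Tnfrsf4 (SE 0.08, adjusted p = 0.162), 0.22 for Tnfrsf9 (SE 0.05, adjusted p = 0.152) and 0.17 for Icos (SE 0.04, adjusted p = 0.152). DESeq2 called these 3 genes, with adjusted p-values of 0.0112, 0.0109 and 0.0138, among 0.737% of genes called. Without the Foxp3-led and the cycling cells edgeR again called none of the 10, and the change of Tnfrsf9 was 0.09 per day (adjusted p = 0.91).

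Cd274 is the gene of PD-L1. In neutrophil-like cells it stood at 1004, 809, 966 and 684 CPM on days 1, 3, 5 and 7 in the diabetic libraries, and at 1202, 365, 269 and 269.9 in the control libraries. On day 1 the diabetic level was 0.835 times the control level, and on days 3, 5 and 7 it was 2.22 times (2.1 to 2.34), 3.59 times (3.18 to 4.06) and 2.54 times (2.37 to 2.72). The control library of day 5 held 267 neutrophil-like cells, the fewest of any library. Among neutrophil-like cells with at least 1000 UMIs, the share with a Cd274 UMI after thinning to 1000 UMIs was 41.5% to 48.9% in the diabetic libraries. In the control libraries it was 53.5% on day 1 and 21.5% to 24.6% later. All 4 diabetic levels lay above the control levels of days 3, 5 and 7.

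The neutrophil-like class summed 5 clusters whose shares differed between the libraries. Cells led by Il23a, Il1a and Tnf were 23.2%, 39.0% and 28.9% of the class in the diabetic libraries of days 3, 5 and 7 and 10.1%, 4.49% and 3.53% in the control libraries, whereas on day 1 they were 19.1% and 34.7%. They had the highest Cd274 with all libraries summed (1376 CPM). Cells led by Ighg2b and Igkc, with the lowest (351), were 19.5%, 12.9% and 55.9% of the class on those days in the diabetic and 40.5%, 62.2% and 90.9% in the control libraries. Within the Ighg2b and Igkc-led cells Cd274 stood at 829, 496, 417 and 521 in the diabetic and 746, 268, 262 and 263 in the control libraries. Within the Il23a, Il1a and Tnf-led cells it stood at 1470, 1394, 1509 and 1106 in the diabetic and 1445, 858, 229 and 843 in the control libraries, the third control value from 12 cells. The diabetic level was the higher in each of the 5 clusters on days 3, 5 and 7. The intervals of the levels overlapped on days 5 and 7 in the cells led by Ngp and on day 7 in those led by Slfn4.

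Cd274 in monocyte-like cells stood at 461, 351, 305 and 421 CPM in the diabetic and at 382, 136, 237 and 273 in the control libraries, higher in the diabetic library on each of the 4 days. In macrophage-like cells it stood at 128, 176, 194 and 297 in the diabetic and at 168, 70.0, 125 and 125 in the control libraries. There the diabetic level was higher on days 3, 5 and 7, while the interval of the ratio included 1 on day 1 (0.437 to 1.31), when the libraries held 45 and 48 such cells. The same order on days 3, 5 and 7 was seen in the dendritic cell-like cells led by Cd209a, at 244, 389, 321 and 393 in the diabetic and 285, 150.3, 198 and 153 in the control libraries.

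Mature dendritic cell-like cells, which carry Ccr7 and Fscn1 and migrate to lymph nodes, had the highest Cd274 of the classes with all libraries summed. The neutrophil-like clusters led by Il23a, Il1a and Tnf (1376 CPM) and by Slfn4 (1175 CPM), taken singly, lay above them. On day 5 the whole class of diabetic neutrophil-like cells (966 CPM) did so too. Cd274 in mature dendritic cell-like cells was 1367, 977, 839.6 and 876 CPM in the diabetic and 1527, 671, 567 and 738 in the control libraries, highest on day 1 in both groups. The ratio on days 3, 5 and 7 was 1.46, 1.48 and 1.19, below the ratios of 2.22 to 3.59 in neutrophil-like cells. T cell-like cells also had Cd274 UMIs, at 193, 201, 152 and 192 in the diabetic and 195, 83.6, 94.2 and 101 in the control libraries. Neutrophil markers in these T cell-like cells were at 2.26% to 9.22% of their level in neutrophil-like cells, and Cd274 was at 15.7% to 37.3%, above these neutrophil markers in each of the 8 libraries. The 8 macrophage markers in T cell-like cells summed to 881, 3850, 623 and 2832 CPM in the diabetic libraries. In the control libraries they summed to 616, 1060, 4705 and 4788. In monocyte- and macrophage-like cells they summed to 3461, 13382, 9174 and 16646 in the diabetic libraries. The control values there were 4799, 12380, 23457 and 19678. Their part in the Cd274 of T cell-like cells was not tested.

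Pdcd1lg2 is the gene of the second PD-1 ligand. In neutrophil-like cells Pdcd1lg2 stood at 37.5, 27.7, 46.1 and 36.4 CPM in the diabetic and at 48.2, 18.8, 17.3 and 14.7 in the control libraries. In macrophage-like cells it was 27.1 in the diabetic and 5.74 in the control library of day 7, a ratio of 4.72 (3.71 to 6.05). The counts behind the earlier days were at most 18 UMIs in each diabetic library. In Cd209a-led dendritic cell-like cells it was 17.0, 33.4, 54.7 and 76.8 in the diabetic and 18.7, 12.9, 39.9 and 21.7 in the control libraries. In mature dendritic cell-like cells the groups crossed, with 86.3 in the diabetic against 147 in the control library on day 3 and 135 against 76.1 on day 7.

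**Figure D4:**
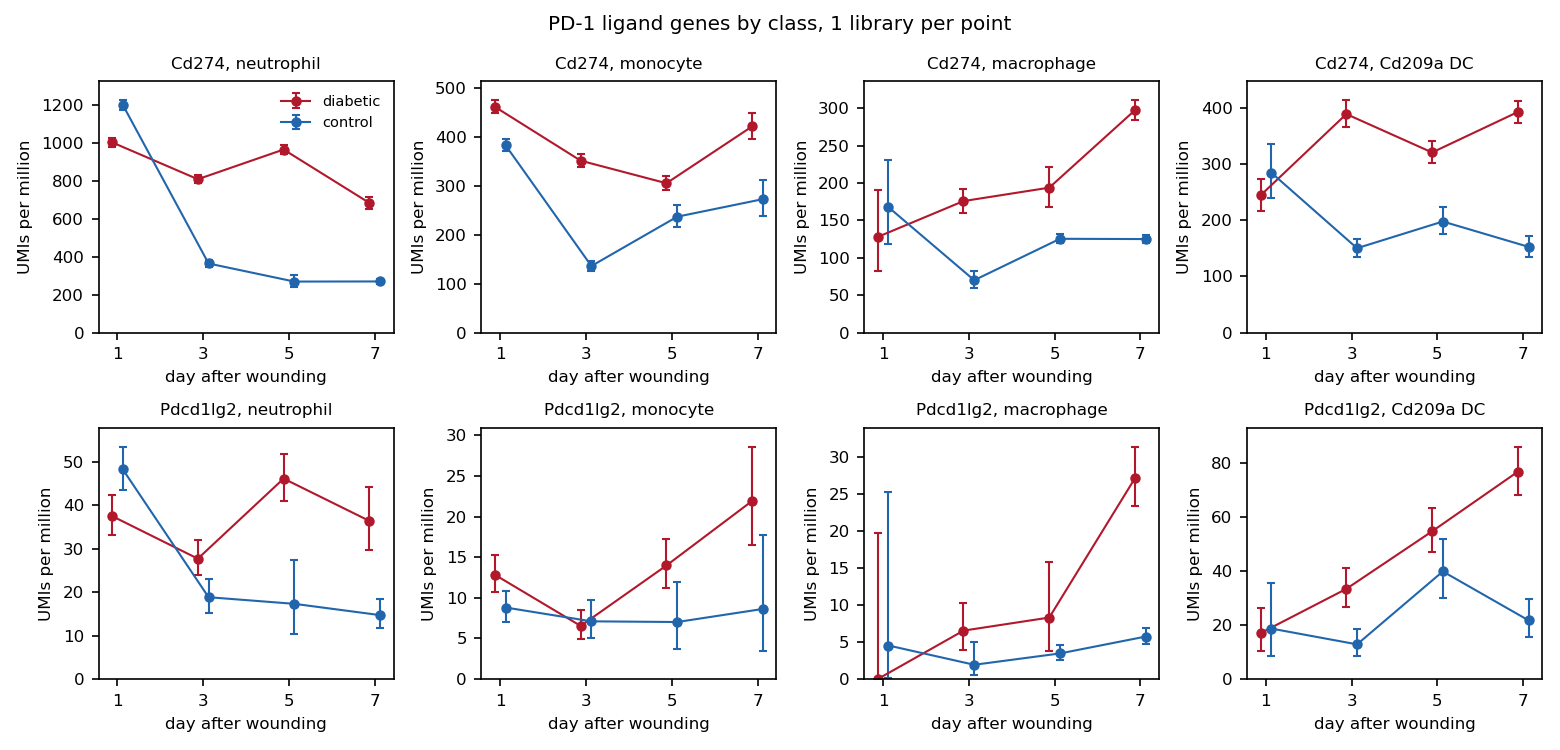
CPM of Cd274 (top) and Pdcd1lg2 (bottom) in 4 cell classes against the day after wounding, 1 point per library (diabetic red, control blue) with exact 95% Poisson intervals. Cd274 lay higher in the diabetic library on days 3, 5 and 7 in all 4 classes, for example at 966 against 269 in neutrophil-like cells on day 5.

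In the fit over the 4 days, monocyte- and macrophage-like cells summed as 1 class gave a log2 fold change of 1.07 for Cd274 (SE 0.19, adjusted p = 0.132) and of 1.25 for Pdcd1lg2 (SE 0.34, adjusted p = 0.185). Neither passed edgeR's threshold, nor did any of the other 8 genes, in a fit where 1 of 11774 genes was called (0.00849%). Of the 10 genes, 5 had an unadjusted p under 0.05, as had 1900 of all genes tested. DESeq2 called 3 of them, Cd274 (adjusted p = 5.23e-05), Pdcd1lg2 (0.0335) and Tnfrsf9 (0.038), where it called 2.62% of genes. Without day 1, edgeR called Cd274 (log2 fold change 1.31, adjusted p = 0.0448), in a fit that called 10 of 11736 genes. Without day 5, whose control library stood apart, the log2 fold change was 1.03 for Cd274 and 1.07 for Pdcd1lg2.

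Markers of other cells also differed between the groups in this class. The 7 markers of Cd209a-led dendritic cells summed to 2797, 9220, 13364 and 15199 CPM in the diabetic and 2200, 9862, 6517 and 10803 in the control libraries, higher in the diabetic library on days 1, 5 and 7. The 7 neutrophil markers summed to 3299, 2335, 1413 and 1096 in the diabetic and 3091, 1470, 292 and 1424 in the control libraries, higher on days 1, 3 and 5. The 9 T cell markers summed to 35.1, 40.3, 96.1 and 275 in the diabetic and 36.6, 57.4, 46.2 and 172 in the control libraries, higher in the diabetic library on days 5 and 7. Their part in the results was not tested.

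Monocytes and macrophages were in different proportion in the libraries: on day 5 the diabetic library held 676 monocyte-like and 117 macrophage-like cells and the control library 165 and 1357. Fitted apart, the log2 fold change of Cd274 was 0.68 in monocyte-like cells (SE 0.17, adjusted p = 0.341, and 0.45 without day 3) and 0.88 in macrophage-like cells (SE 0.21, adjusted p = 0.265), and neither was called. Of all genes, 0.00932% and 0.0405% were called in these fits, 0.0303% as higher in the second. Of the members 5 of 10 and 5 of 9 had an unadjusted p under 0.05, beside 932 of 10725 and 664 of 9886 genes, and DESeq2 called Cd274 in monocyte-like cells (adjusted p = 0.0367, 0.772% of genes called) and none in macrophage-like cells. It gave no adjusted p for 6 of the 10 genes in monocyte-like and 5 in macrophage-like cells, Pdcd1lg2 among them in both. For Pdcd1lg2 it was 0.61 (SE 0.26) and 1.81 (SE 0.40, adjusted p = 0.221).

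In neutrophil-like cells the log2 fold change of Cd274 was 1.21 (SE 0.41, adjusted p = 0.394), and 0.77 without day 5. The 8 macrophage markers in these cells summed to 386, 2711, 1752 and 7996 CPM in the diabetic and 565, 2147, 7938 and 10197 in the control libraries, and the 7 neutrophil markers to 61088, 31232, 25200 and 16944 and to 48715, 34038, 15773 and 13896. The groups were furthest apart in ratio on day 5, and the part of these markers and of the cluster mix in the result was not tested. None of the 10 genes was called by edgeR, where 0.0184% of genes were called, although 6 had an unadjusted p under 0.05, beside 1195 of 10890 genes. DESeq2 called Cd274 (adjusted p = 0.0363), where it called 1.51% of genes and gave no adjusted p for 4 of the 10. In dendritic cell-like cells the log2 fold change was 0.41 for Cd274 (SE 0.26), 0.51 for Pdcd1lg2 (SE 0.25), 0.51 for Cd80 (SE 0.17, adjusted p = 0.739) and 0.15 for Cd86 (SE 0.14). None of the 10 genes was called there by edgeR, where 0.0101% of genes were called, or by DESeq2, which gave no adjusted p for 4 of them, and 2, Cd80 and Icos, had an unadjusted p under 0.05, beside 580 of 9860 genes. Leaving out 1 day moved Cd274 between 0.20 (without day 3) and 0.81 (without day 1), and Pdcd1lg2 stood at 0.16 without day 7. Mature cells were 12.7% of the dendritic cell-like cells in the diabetic and 28.1% in the control library of day 1, and 16.4% to 21.0% and 17.8% to 24.6% on the later days. For Icos the log2 fold change was 1.07 (SE 0.19, adjusted p = 0.274), and its level in dendritic cell-like cells was 4.29 to 86.0 CPM against 1457 to 3405 in T cell-like cells. In dendritic cell-like cells the 9 T cell markers summed to 40.1, 54.3, 118 and 257 CPM in the diabetic libraries. The control sums were 47.2, 76.3, 60.8 and 146. The 8 macrophage markers summed to 374, 1927, 964 and 3574 in the diabetic and 449, 1307, 4646 and 4912 in the control libraries. The 7 neutrophil markers summed to 3679, 3305, 3033 and 2017 in the diabetic and 3628, 2557, 1664 and 2614 in the control libraries. Their part in the results was not tested.

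**Figure D5:**
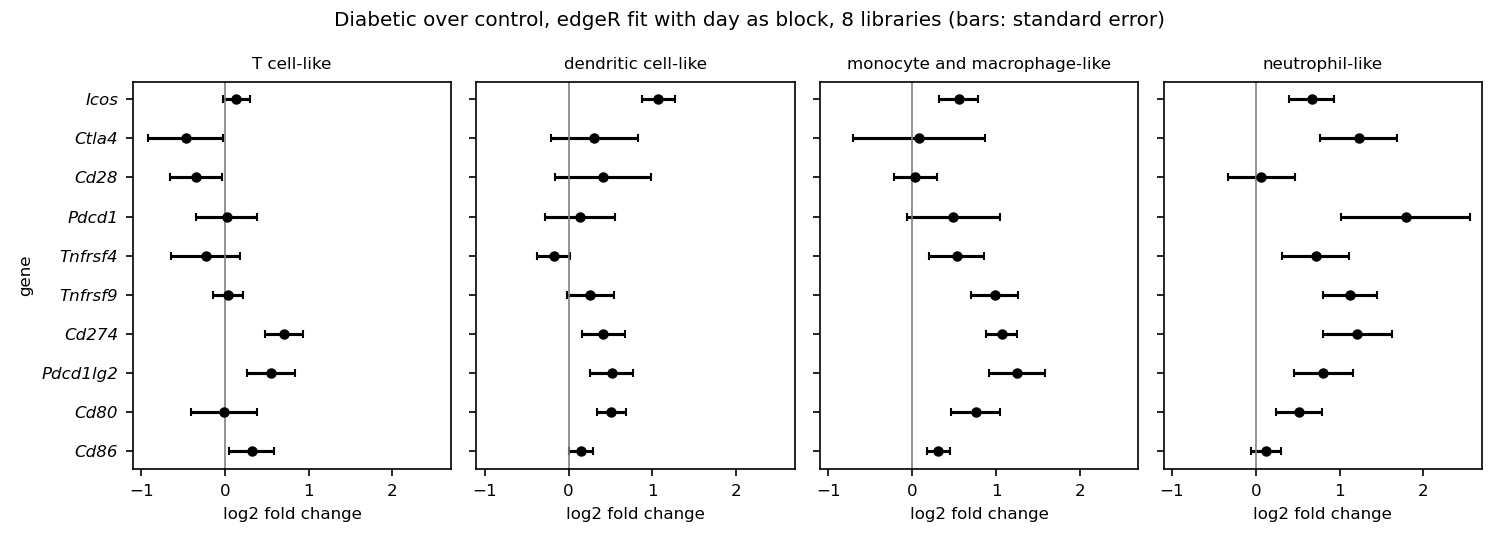
Log2 fold change, diabetic over control (x axis), of the 10 genes (y axis) in 4 cell classes from edgeR with day as a block over 8 libraries, bars 1 standard error. In monocyte- and macrophage-like cells Cd274 (1.07) and Pdcd1lg2 (1.25) lay well above 0, with adjusted p-values of 0.132 and 0.185, and no point passed the threshold of 0.05.

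Summed over all cells of a library, Cd274 stood at 640.0, 464, 488 and 382 CPM in the diabetic and at 713, 189.7, 133 and 160.0 in the control libraries. In such sums fewer cells of a type and less RNA per cell cannot be told apart. Its log2 fold change was 1.11 (SE 0.36, adjusted p = 0.451, and 0.81 without day 5), with 1.12 for Pdcd1lg2 (SE 0.45), 0.92 for Cd80 (SE 0.37) and 0.42 for Cd86 (SE 0.16). Without day 5 the values of Pdcd1lg2 and Cd80 were 0.70 and 0.48. These 4 ligand genes had unadjusted p-values under 0.05, as had 1521 of all genes tested, and none of the 10 genes was called by edgeR or DESeq2. edgeR called 0.0% of 13857 genes and DESeq2 0.668% of its own. Neutrophil-like cells were 46.0% of the diabetic and 8.16% of the control cells on day 5.

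Cd80 and Cd86, the ligands of CD28 and CTLA-4, were highest in mature dendritic cell-like cells with all libraries summed. Cd86 there stood at 1349, 1053, 1386 and 1019 CPM in the diabetic and at 1518, 934, 991 and 859 in the control libraries, and after thinning 48.4% to 73.7% of these cells had a Cd86 UMI. Cd80 stood at 299, 425, 733 and 374 in the diabetic and at 238, 265, 325 and 305 in the control libraries, higher in the diabetic library on each day and with the widest gap on day 5, at 2.26 times (1.88 to 2.73). The intervals of that ratio included 1 on days 1 and 7. Cd80 in neutrophil-like cells was 96.5, 91.5, 118 and 69.5 in the diabetic and 111, 76.3, 64.4 and 47.4 in the control libraries. Among smaller dendritic sub-clusters, the 78 cells led by Cd207, a gene of Langerhans cells, had 886 CPM of Cd86 but 79.3 of Cd274. The cells with Plet1, Naaa and Clec9a among their leading genes had 399 of Cd86 and 222 of Cd274. These sub-clusters come from clustering all dendritic cell-like cells again, so their cells are also counted in the Cd209a-led or the mature cells.

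Tnfrsf9 and Tnfrsf4 were also read in mature dendritic cell-like cells. Tnfrsf9 there was 219.7 to 712 CPM over the 8 libraries, and Tnfrsf4 41.2 to 139. Set against T cell-like cells, Tnfrsf4 over all dendritic cell-like cells was at 7.2% to 28.0% of its T cell level, while the 8 T cell markers other than Trdc were at 0.772% to 5.38% of theirs. Trdc is left out wherever a percent of the T cell level is given. Tnfrsf4 exceeded the markers in each of the 8 libraries, Icos in 1 of 8 and Ctla4 in 4 of 8.

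The time course was tested with day as a linear term beside group. In neutrophil-like cells all 10 genes passed edgeR's threshold, where 40.3% of 10220 genes did, 20.9% as higher and 19.5% as lower. Cd274 fell by 0.40 on the log2 scale per day (SE 0.09, adjusted p = 0.00542), Pdcd1lg2 by 0.29 (SE 0.09, adjusted p = 0.018) and Cd80 by 0.29 (SE 0.06, adjusted p = 0.00498). Without the control library of day 1 these changes were -0.20 for Cd274 (adjusted p = 0.0414), -0.12 for Pdcd1lg2 (adjusted p = 0.215) and -0.20 for Cd80 (adjusted p = 0.0491), so the call of Pdcd1lg2 was lost, as it was without the control library of day 7. All genes called went from 4123 to 2135 and 2029 in these fits. Cd86 rose by 0.11 per day (SE 0.04, adjusted p = 0.0472), a call that was lost without any 1 of the 8 libraries and in DESeq2 (adjusted p = 0.0671). Neutrophil markers in the same cells went down and macrophage markers up over the days, as given above. The part of these markers in the results was not tested. The 4 ligand genes did not behave so in every class: in macrophage-like cells the change of Cd274 was 0.10 per day (SE 0.06, adjusted p = 0.585).

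The 6 receptor genes rose per day in neutrophil-like cells, Icos by 0.63 (SE 0.06, adjusted p = 5.28e-05) and Ctla4 by 0.53 (SE 0.09, adjusted p = 0.00169). Their levels there were low, 1.6 to 74.9 CPM for Icos and 0.799 to 25.6 for Ctla4. The T cell markers other than Trdc moved with them in neutrophil-like cells, at 26.4 CPM in the diabetic library of day 1 and 246 on day 7, which was 0.518% and 5.42% of their level in T cell-like cells. Icos was at 0.11% to 2.33% of its T cell level and lay below the markers in each of the 8 libraries. The part of these T cell UMIs in the rise was not tested. Ctla4 lay below them in 5 of 8 and Pdcd1 in 6 of 8, whereas Tnfrsf9 lay above in 8 of 8. The call of Tnfrsf9 was lost without the diabetic library of day 7 and that of Pdcd1 without the control library of day 7. All genes called went from 4123 to 2038 and 2029 in these fits.

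In monocyte- and macrophage-like cells 5 of the 6 receptor genes passed, where Icos (0.69 per day, SE 0.07, adjusted p = 0.00252), Pdcd1 (0.82, SE 0.13), Ctla4 (0.62, SE 0.16), Tnfrsf4 (0.59, SE 0.08) and Cd28 (0.38, SE 0.06) rose, in a fit that called 9.6% of 11389 genes, 4.67% as higher and 4.93% as lower. Tnfrsf9 stood at 0.23 per day (SE 0.07, adjusted p = 0.0693). The same 8 T cell markers went in monocyte-like cells from 29.7 to 221 CPM and in macrophage-like cells from 21.3 to 269.7 between days 1 and 7 of the diabetic libraries. Icos lay below the T cell markers in 8 of 8 libraries in monocyte-like cells and in 6 of 8 in macrophage-like cells. With cells gated singly by marker UMIs in place of clusters, none of the 10 genes was called, in a fit where the genes called over all went from 1093 to 13. The changes were then 0.60 for Icos, 0.62 for Pdcd1, 0.82 for Ctla4, 0.57 for Tnfrsf4 and 0.43 for Cd28, with adjusted p-values of 0.0534 to 0.0925. Fitted apart, monocyte-like cells had 2 of 9 genes called (Icos and Tnfrsf4) where 0.965% of all genes were, 0.614% as higher and 0.351% as lower, and macrophage-like cells 3 of 8 (Icos, Tnfrsf4 and Tnfrsf9) where 0.648% were, 0.446% as higher and 0.202% as lower. DESeq2 did not call Icos (0.42 per day, adjusted p = 0.171) or Tnfrsf4 (0.59, adjusted p = 0.0595) in macrophage-like cells. It called Tnfrsf9 (adjusted p = 0.00614) and also Ctla4 (0.72, adjusted p = 0.0387), for which edgeR gave no value, where it called 1.3% of genes. Leaving out the diabetic library of day 7 ended each of the 5 edgeR calls in the 2 classes fitted apart, and in the class summed from both it left Icos alone, with Ctla4 at 0.36 per day. In that class Icos and Tnfrsf4 alone were called without the control library of day 7, and Icos and Cd28 alone without the diabetic library of day 1. Ctla4 was also lost without the diabetic library of day 5 or the control library of day 3, and Cd28 without the control library of day 1. All genes called in the summed class went from 1093 to 54 without diabetic day 7, 189 without control day 7, 55 without diabetic day 1 and 112 without control day 1. They stood at 1078 without diabetic day 5 and 1256 without control day 3. The calls of macrophage-like cells were all lost without the diabetic library of day 3, those of Icos and Tnfrsf4 without the control library of day 7, and that of Tnfrsf4, as in monocyte-like cells, without the diabetic library of day 1. All genes called in macrophage-like cells went from 61 to 2, 14, 47 and 33 (without diabetic day 7, diabetic day 3, control day 7 and diabetic day 1). In monocyte-like cells they went from 99 to 10 without diabetic day 7 and 14 without diabetic day 1.

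In dendritic cell-like cells Tnfrsf4 was called, rising by 0.26 per day (SE 0.04, adjusted p = 0.0318), where 0.307% of 9440 genes were called, 0.265% as higher and 0.0424% as lower. Its levels were 13.4, 17.7, 22.2 and 40.8 CPM in the diabetic and 12.9, 19.2, 31.5 and 40.0 in the control libraries, in the same order of days in both groups. The call was lost without either library of day 1, either library of day 7 or the control library of day 3. All genes called then went from 29 to 20, 11, 0, 3 and 27 (without diabetic day 1, control day 1, diabetic day 7, control day 7 and control day 3). The 9 T cell markers in these cells went from 40.1 to 257 CPM between days 1 and 7 of the diabetic libraries, and their part was not tested.

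Over all cells of a library 5 of the 10 genes passed, where 10.3% of 13332 genes did, 3.45% as higher and 6.89% as lower. Tnfrsf4 rose by 0.57 per day (SE 0.11, adjusted p = 0.026), Pdcd1 by 0.53 (SE 0.12, adjusted p = 0.0359), Icos by 0.45 (SE 0.09, adjusted p = 0.0304) and Tnfrsf9 by 0.31 (SE 0.08, adjusted p = 0.0396). Cd274 fell by 0.33 (SE 0.09, adjusted p = 0.0462). Icos summed over all cells was 48.6, 64.1, 309 and 512 CPM in the diabetic and 29.6, 120.0, 62.9 and 269 in the control libraries, and T cell-like cells were 1.84%, 2.46%, 9.76% and 15.5% of the diabetic and 2.09%, 4.49%, 3.91% and 9.63% of the control cells. All 5 calls were lost without either library of day 1 or either library of day 7, when the genes called over all went from 1378 to 11, 1, 3 and 233 (without diabetic day 1, control day 1, diabetic day 7 and control day 7), and that of Cd274 also without either library of day 5. Without the control library of day 1 the change of Cd274 was -0.16 per day (adjusted p = 0.178).

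Whether the change per day differed between the groups was tested with an interaction term. It was called for none of the 10 genes in any of the 7 classes by edgeR or DESeq2. In all cells, T cell-like, dendritic cell-like, monocyte- and macrophage-like and neutrophil-like cells edgeR called 0.0% of genes. It was 0.0101% in macrophage-like cells and 0.0% in monocyte-like cells. The unadjusted p was under 0.05 for 3 of the 10 genes in all cells, 5 in dendritic cell-like, 1 in monocyte- and macrophage-like, 1 in monocyte-like and 2 in macrophage-like cells. Of all genes it was under 0.05 for 240 of 13857, 199 of 9860, 115 of 11774, 170 of 10725 and 185 of 9886 in the same order. It was also under 0.05 for Cd274 (difference of 0.38 log2 per day, SE 0.14), Pdcd1lg2 (0.40, SE 0.13), Cd80, Ctla4, Cd28 and Tnfrsf4 in neutrophil-like cells and for Ctla4 alone in T cell-like cells (0.34, SE 0.15), with adjusted p-values of 0.999 and 0.9995, beside 384 of 10890 and 268 of 8368 genes.

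Of 36 further genes of these pathways, 34 were in the files. None was called between the groups in any class by edgeR. Their median log2 fold change was 0.31 over all cells, 0.15 in T cell-like, 0.09 in dendritic cell-like and 0.36 in neutrophil-like cells. It was 0.33 in monocyte- and macrophage-like cells summed, but 0.05 in monocyte-like and 0.18 in macrophage-like cells fitted apart. Over all genes tested the medians were -0.0126 to -0.0020. Over days, 6 of 34 passed in all cells, where 10.3% of all genes did: Tigit (0.40 per day), an inhibitory receptor, and Tnfrsf18 (0.33), the GITR receptor, rose, while Tnfsf14 (-0.30), Ceacam1 (-0.26), Cd244 (-0.23) and Lgals9 (-0.20) fell. Without the control library of day 1, only 1 of all genes was called in this fit, as higher. The 4 falls were then lost, and at most 1 of the 2 rises stayed. In monocyte- and macrophage-like cells 5 of 30 rose (Cd27, Tnfrsf18, Cd2, Slamf1 and Cd5, by 0.30 to 0.60) and 3 fell (Lgals9, Cd244 and Ceacam1), where 4.67% of all genes were called as higher and 4.93% as lower. Cd2 is itself among the 9 T cell markers, whose sum in these cells went from 35.1 to 275 CPM in the diabetic and from 36.6 to 172 in the control libraries between days 1 and 7, and their part in the result was not tested. In neutrophil-like cells, where 20.9% of all genes were called as higher and 19.5% as lower, 11 of 22 rose, among them Cd276 (0.45), Cd2 (0.42), Cd48 (0.31), Cd40 (0.24) and Pvr (0.24), and 4 fell, Icosl (-0.37), the ICOS ligand gene, Tnfsf14 (-0.32), Ceacam1 (-0.28) and Lgals9 (-0.16). The T cell markers, Cd2 among them, went in neutrophil-like cells from 33.0 to 258 CPM in the diabetic and from 26.1 to 160 in the control libraries between days 1 and 7. The macrophage markers went there from 386 to 7996 and from 565 to 10197, and the part of both in these rises was not tested. In monocyte-like cells 2 of 25 passed, where 0.965% of all genes did: Cd2, again one of the T cell markers, rose (0.39) and Tnfsf14 fell (-0.21). None of 25 passed in T cell-like cells and none of 24 in dendritic cell-like cells.

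The partner genes of the TNF receptor family had their own sources. Tnfsf4, the OX40 ligand gene, was at 469.7 CPM in mature dendritic cell-like cells against 108 in Cd209a-led and 13.3 in T cell-like cells. Tnfsf9, the 4-1BB ligand gene, was highest in monocyte-like cells (353) and stood at 186 in mature dendritic cell-like cells. Icosl was at 298 in mature dendritic cell-like and 196 in neutrophil-like cells.

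The genes most alike to each member in level were found over 61 sums of a class in a library with at least 20 cells, among 7692 genes, by Pearson's r of log2 levels. The sums share libraries and depth, so r is a description. Ctla4 was most like Foxp3 (0.95), Tnfrsf4 (0.94) and Cd5 (0.94), and Tnfrsf4 was most like Ctla4 and Foxp3 (0.93). Icos was most like Trbc2 (0.95), Trac (0.95) and Cxcr6 (0.95), Pdcd1 like Cd163l1 (0.94), Cxcr6 (0.94) and Tnfsf11 (0.94), Cd28 like Zap70 (0.97), Cd2 (0.96) and Lck (0.96), and Tnfrsf9 like Il2ra (0.92), Thy1 (0.91) and Tcf7 (0.91). Among the ligands, Cd86 was most like Cd40 (0.92), Tnip3 (0.90) and Naaa (0.89). The other ligands had looser partners. Cd274 was most like Cd24a (0.85), Slc2a6 (0.84) and Il1b (0.80), and Cd80 like Mreg (0.84), Il1r2 (0.83) and Rel (0.83). Pdcd1lg2 was most like Nr4a3 (0.76), Dennd4a (0.73) and Tes (0.72).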

How the data were processed

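The authors deposited 1 table of UMI counts per library, genes by cells, raw and not normalized. The submitters' processing notes name fastp 0.20.1 and build mm9, whereas the study's methods name UMI-tools and STAR with an Ensembl version of the mouse genome. The record and the methods also name different droplet or well platforms. As in the methods, cells needed more than 200 detected genes and a mitochondrial share below 20%, and mitochondrial genes were then dropped. Barcodes were renumbered in the deposited tables, so identical columns were counted in their place. Clustering (scanpy 1.11.5, 2000 variable genes without the 10 members, 10 components, 30 neighbours, Leiden resolution 0.8) was done again, so classes can differ from the study's. T cell and dendritic clusters were clustered again (20 neighbours) after NK and T cells had been seen to merge. A T cell-like sub-cluster had to have a Cd3d, Cd3e or Cd3g UMI in at least 50% of cells. Scrublet marked 105 of 35215 cells as doublets, which is too few to have worked, so removal of the highest 5% of scores was added. UMIs were summed per library and class and tested with edgeR 4.0.16 (quasi-likelihood, TMM, filterByExpr, Benjamini-Hochberg over all genes, threshold 0.05) and, as an alternative, DESeq2 1.42.0. The scripts were tested on simulated data. The fits of neutrophil-like, monocyte-like and macrophage-like cells alone and the split of neutrophil-like cells by cluster were added after the levels had been seen. Per the study's methods, each library pooled wounds of 5 mice killed on its day, so different days are different animals. Members and lists were chosen with earlier results of these data known. The genes named were the 10 members, any of 36 pathway genes that passed a fit, and the 3 genes most alike to each member among genes with a mean of at least 10 CPM, on log2(level + 10); partner ligands named by level were chosen after their values were seen. Intervals are at 95% and, like the limits on low counts, cover counting error only.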

Additional observations from a re-analysis of the deposited data

How the results depend on the processing

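No direction reversed among the log2 fold changes recomputed under the alternatives, chiefly those of Cd274 and Pdcd1lg2 between the groups in each class and the changes per day called by edgeR for all, dendritic cell-like, and combined monocyte- and macrophage-like cells and for the ligands in neutrophil-like cells. DESeq2 gave the opposite sign for 3 other estimates, none of them called, namely Ctla4 between the groups in monocyte- and macrophage-like cells (0.08 in edgeR, -0.59 in DESeq2), Cd28 between the groups in neutrophil-like cells (0.07 and -0.03) and Cd86 per day in dendritic cell-like cells (0.00091 and -0.00075). Between the groups, the 0 members called by edgeR became, under DESeq2, 3 in monocyte- and macrophage-like cells, beside 2.62% of all genes. In neutrophil-like and monocyte-like cells they became 1 each, beside 1.51% and 0.772%. With no filter on low counts they became 4 in monocyte- and macrophage-like, 3 in monocyte-like, 3 in macrophage-like, 2 in neutrophil-like and 1 in dendritic cell-like cells. The shares of all genes called in these fits were 2.63%, 1.07%, 0.694%, 1.28% and 0.715%, in the same order. Without the replicate block of day, 0 members were called in every class, and the log2 fold change of Cd274 was 0.63 in all cells and 0.54 in neutrophil-like cells. Over days, DESeq2 called 3 members in T cell-like, 4 in dendritic cell-like and 4 in monocyte-like cells, beside 0.737%, 1.55% and 3.15% of all genes. No filter on low counts gave 5 in each of these, beside 0.809%, 1.95% and 2.28%, and 5 in macrophage-like cells, beside 1.23%. A comparison of days 5 and 7 with days 1 and 3 called 0 members in every class. Removing the highest 5% of doublet scores gave 2 in dendritic cell-like cells, and the marker gate gave 2 there (beside 24 of 9363 and 40 of 10654 genes called) and 0 in monocyte- and macrophage-like cells. Leaving out 1 day gave 0 to 1 members between the groups in monocyte- and macrophage-like cells and 0 elsewhere. Leaving out 1 library gave, over days, 0 to 5 members in all cells, 0 to 2 in dendritic cell-like, 1 to 6 in monocyte- and macrophage-like, 0 to 4 in monocyte-like, 0 to 4 in macrophage-like and 7 to 9 in neutrophil-like cells. The next paragraph gives the range of all genes called when 1 day or 1 library was left out. The cause of these shifts was not tested.

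Counts of all genes called moved as well. Between the groups, in the order all, T cell-like, dendritic cell-like, monocyte- and macrophage-like, neutrophil-like, monocyte-like and macrophage-like cells, edgeR called 0, 0, 1, 1, 2, 1 and 4 genes, DESeq2 83, 0, 14, 277, 72, 39 and 35, and edgeR with no filter 1, 32, 123, 520, 232, 191 and 131. Without the block all were 0. Over days, edgeR called 1378, 9, 29, 1093, 4123, 99 and 61, DESeq2 2779, 55, 158, 1914, 4200, 367 and 150, edgeR with no filter 1464, 132, 336, 1430, 4277, 407 and 232, and days 5 and 7 against days 1 and 3 gave 0, 2, 0, 0, 1, 8 and 1. Leaving out 1 library gave, over days and in the same order, 1 to 1618, 0 to 18, 0 to 103, 54 to 1724, 2029 to 4821, 10 to 187 and 2 to 141, and leaving out 1 day gave, between the groups, 0 to 1, 0 to 0, 1 to 4, 0 to 10, 0 to 5, 0 to 4 and 1 to 18. The interaction gave at most 1 gene with edgeR on all 8 libraries, 15 without 1 library (macrophage-like cells, diabetic day 7), 6 with DESeq2 and 34 with no filter.

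The share of cells with a UMI was 70.8% for Icos in T cell-like cells, 18.4% for Ctla4 there, 41.4% for Cd274 in neutrophil-like and 45.5% for Cd86 in dendritic cell-like cells after thinning to 1000 UMIs. It was 80.8%, 25.5%, 56.6% and 64.4% at 2000 UMIs and 83.1%, 31.7%, 58.2% and 85.9% without thinning. Each thinned share covers only cells with at least that many UMIs, so the settings rest on different sets of cells. The levels of 2714, 485, 791 and 769.6 CPM became 2489, 436, 801 and 710.4 at resolution 1.6. The marker gate gave 1389 for Icos, 248 for Ctla4 and 505 for Cd86. Without the highest doublet scores Icos was 2800.3, Cd274 813 and Cd86 785.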
